A study of Mus musculus with 4 samples.

Results

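The genes described here are 38 genes of glucose use in muscle: carriers of glucose and lactate across the plasma membrane, enzymes of glycolysis, and enzymes that store and release glycogen. They were taken by gene symbol from a list of names, with no threshold on a measured value, and all 38 have a row among the 32285 gene rows. The cells were mouse muscle stem cells with the genotype MyoD-KI, in which the red fluorescent protein tdTomato reports MyoD, the product of the myogenic gene Myod1. They had been kept for 5 days in a serum-rich growth medium, and cells with high reporter signal were sorted and read by droplet single-cell RNA sequencing. All 4 libraries are labelled as this 1 group, so every cell carries the same knock-in and the same culture, and no unsorted or wild-type cells served as a control here. The labels give neither the age nor the number of the mice.

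Glycolysis splits glucose into pyruvate in a chain of enzymes, many of which exist as a broadly expressed isoform and a second one typical of skeletal muscle. Muscle enolase (Eno3), muscle phosphoglycerate mutase (Pgam2), muscle phosphofructokinase (Pfkm) and muscle glycogen phosphorylase (Pygm) are the classical muscle forms, and their loss in people causes muscle glycogen storage or related myopathies. Pyruvate is either reduced to lactate and exported or oxidised in mitochondria, and muscle fibres keep glycogen as a local reserve of glucose.

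The 4 libraries were not independent. Pairs of files shared 5946 to 5965 cell barcodes (99.9% of the smaller set), and cells correlated with their own barcode in another file at a median r of 0.794 to 0.800, against 0.660 to 0.664 with other barcodes. The 4 files were therefore counted as 1 sample, no p-value was computed, and the spread between files is technical. Of about 10000 cells that the labels say were loaded, 5944 barcodes occurred in all files, and 5481 had at least 1000 genes and under 10% mitochondrial unique molecular identifiers (UMIs, 1 per captured molecule). The files held 62627341 to 68898900 UMIs, with a median of 11049 per kept cell. The cells carried the muscle lineage markers Myod1 (507 CPM, that is UMIs per 1000000 UMIs), Myog (1803 CPM) and Des (1165 CPM). Of 34 markers of 7 other cell types, 28 lay below 1 CPM, among them Pdgfra (0.499 CPM), Dcn (0.327 CPM) and Ptprc (0.0269 CPM). Tie1, Tyrobp, Cidec, Hbb-bs and Hbb-bt were at 0, and 3 markers reached 10 CPM, namely Col3a1, Notch3 and Lpl.

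Cells were placed along 3 scales. Myog is the transcription factor of terminal myogenic differentiation, and cells were set into 5 bins from under 100 CPM (1875 cells) to at least 5000 CPM (643 cells). Acta1 and Myh3, skeletal actin and embryonic myosin heavy chain, gave 4 bins of summed level from under 100 CPM (1970 cells) to at least 10000 CPM (476 cells). Mki67 and Top2a, genes of dividing cells, gave 4 bins from under 50 CPM (2799 cells) to at least 600 CPM (1152 cells). Each contrast sets the highest bin against the lowest, and a gene was called higher or lower at a log2 ratio of at least 1 or at most -1, on CPM plus 1, with a mean of at least 50 UMIs per file over both sides. Intervals are exact 95% intervals at the mean count of 1 file and cover counting error only. A captured mRNA gives about 1 UMI whatever its length in this 3' chemistry, so levels of different genes were compared without division by length. Whether intronic reads were counted is not given, and an effect of gene length on the levels was not tested.

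Other things moved with the scales. The share of cells in the highest Mki67+Top2a bin was 33.1% under 100 CPM of Myog and 2.18% at 5000 CPM or more. The summed level of the 34 markers of other cell types was 330 CPM in the lowest Myog bin and 64.2 CPM in the highest, and 316 and 48.2 CPM at the ends of the Acta1+Myh3 scale. Most of that sum came from fibroblast markers (166 to 37.2 CPM over the Myog bins) and pericyte markers (115 to 6.13 CPM), and their part in the results below was not tested. Single genes made up most of both sums: over all kept cells Col3a1 was at 110 CPM, with the other 5 fibroblast markers each below 0.5 CPM, and Notch3 was at 50.3 CPM, beside 5.25 CPM for Rgs5 and 4.59 CPM for Pdgfrb. Over all genes past the count minimum, 7.83% were called higher and 29.7% lower in the Myog contrast, and the median log2 ratio was -0.47.

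Phosphoglycerate mutase showed the widest isoform difference of the family shares compared here. Pgam2 (ENSMUSG00000020475, chr11:5801640-5803733 on GRCm38 in GENCODE M21) was read at 44.7, 46.1, 45.0 and 46.0 CPM in the 4 files in cells under 100 CPM of Myog, and at 577, 565, 576 and 583 CPM in cells with at least 5000. Pgam1 (ENSMUSG00000011752, chr19:41911923-41918660), the broadly expressed form, stood at 378, 383, 385 and 392 CPM in the Myog-poor cells and at 157, 160, 150 and 147 CPM in the Myog-rich cells. The 4 files did not overlap between the ends of the scale for either gene, and the genes lay in opposite order at the ends. As the files repeat the same cells, a lack of overlap here and below concerns technical spread only. Gapdh, with a log2 ratio of 0.23, did not overlap either. Pgam2 was 12.7-fold higher in Myog-rich cells (log2 ratio 3.63, interval 3.54 to 3.73) and Pgam1 was lower (log2 ratio -1.32, interval -1.41 to -1.22).

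As a share of the UMIs of both genes, Pgam2 made up 10.6%, 23.7%, 52.3%, 72.3% and 78.9% from the lowest to the highest Myog bin, a difference of 68.3 percentage points (interval 67.0 to 69.6) between the ends. Each bin lay above the one before it by more than its counting interval. On the Acta1+Myh3 scale the share went from 15.9% through 28.8% and 70.2% to 87.3%. Along Mki67+Top2a it went the other way, from 70.0% in cells under 50 CPM to 34.5%, 19.4% and then 18.0% in cells with at least 600 CPM. The last of these steps was small, and the intervals of the upper 2 bins (18.3% to 20.6% and 17.1% to 18.9%) overlapped.

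**Figure D1:**
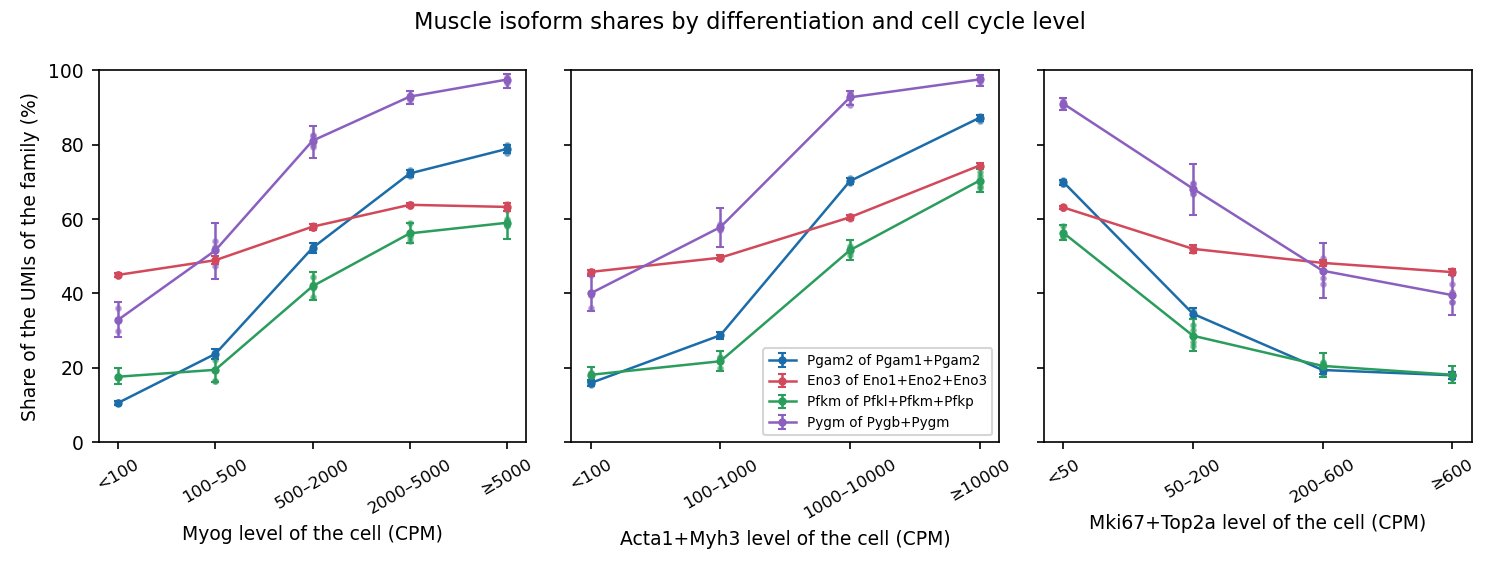
Share of each isoform family's UMIs that belongs to the named muscle isoform (vertical axis, percent) by bin of Myog, Acta1+Myh3 and Mki67+Top2a CPM (horizontal axis); small points are the 4 files, large points their mean, and bars exact 95% counting intervals. Pgam2 goes from 10.6% to 78.9% and Eno3 from 45.0% to 63.3% over the Myog bins, and both are lower toward high Mki67+Top2a.

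The promoters of this pair are shown because the pair had the widest difference in share along the Myog scale. Each window holds the 250 bases before the RefSeq transcript start (GRCm38.p6), written 5′ to 3′ on the strand of the gene, with every match to the E-box pattern CANNTG in capitals. That pattern is the one that MyoD and myogenin are known to bind, and it reads as the same pattern on both strands. The Pgam1 window lies at chr19:41911621-41911870 on the plus strand, and the Pgam2 window at chr11:5803797-5804046 on the minus strand.
Pgam1: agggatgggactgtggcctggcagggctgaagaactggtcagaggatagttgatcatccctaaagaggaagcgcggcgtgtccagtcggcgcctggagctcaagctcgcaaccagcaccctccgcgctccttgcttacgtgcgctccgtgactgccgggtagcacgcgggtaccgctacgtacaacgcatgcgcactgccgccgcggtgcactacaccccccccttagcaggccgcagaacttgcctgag
Pgam2: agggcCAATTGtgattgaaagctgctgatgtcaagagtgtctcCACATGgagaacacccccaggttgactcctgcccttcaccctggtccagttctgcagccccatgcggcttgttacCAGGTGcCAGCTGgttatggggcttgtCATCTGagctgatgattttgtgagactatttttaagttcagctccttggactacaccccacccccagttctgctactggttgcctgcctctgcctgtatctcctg
The Pgam2 window held 5 matches, of which 1 was CAGCTG, and the Pgam1 window held 0. The Phkg1 window also held 5, though Phkg1 was under the count minimum in the Myog contrast (log2 ratio -0.29). Gpi1 and Pfkl held 3 each and were not called (0.33 and 0.25), while Pygm held 2 and Eno3 held 1. A link between the number of matches and the levels was not tested. Of all 32851 RefSeq windows of this length, 66.2% held at least 1 match to CANNTG and 13.0% held CAGCTG, and a match describes the letters and is not a binding site. Among the 36 listed genes with a promoter entry, 25 (69.4%) had CANNTG in a window, beside 69.3% of all 27025 genes. CAGCTG was found for 9 of the 36 (25%), beside 14.7% of all genes. The core of the hypoxia response element, ACGTG on either strand, was found for 16 of the 36 (44.4%), beside 18.5% of all genes. A gene was counted if any of its windows matched, and some have several, such as Pfkm and Pfkfb1 with 4 each. These shares of genes were not adjusted for the number of windows. Slc2a3 and Slc2a4 had no entry.

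In single cells the mutase shares lay toward opposite ends in the outer Myog bins. Among cells with at least 20 UMIs of the pair, summed over the 4 files, the median Pgam2 share was 3.23% in the lowest Myog bin (835 cells) and 83.3% in the highest (444 cells). In the lowest bin 72.8% of these cells had a Pgam2 share under 10%, and 0.240% had a share over 90%. In the highest bin 0.225% lay under 10% and 28.4% lay over 90%. The middle bin, 500 to 2000 CPM of Myog, was spread widely, with a median of 48.3% and the middle 80% of cells between 11.5% and 89.5%. A minimum of UMIs selects cells that express the pair well, so these shares describe the better-covered cells. The files repeat the same cells, so the same molecule may be counted in several files. The 20 UMIs can then stand for fewer molecules, and the spread of shares within a bin includes counting error. How much of that spread is counting error was not tested.

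The enolase forms were closer to each other in level than the mutases. Eno3 (ENSMUSG00000060600, chr11:70657202-70662513), the muscle form, was already at 473, 474, 471 and 470 CPM in the 4 files in Myog-poor cells and at 849, 893, 867 and 843 CPM in Myog-rich cells. The files did not overlap between the ends, yet the log2 ratio of 0.87 (interval 0.82 to 0.92) stayed under the limit for a call. Eno1 (chr4:150236721-150248879), the broad form, was at 576 CPM and 500 CPM, and its small log2 ratio of -0.20 turned positive under other scalings (0.16 with edgeR's TMM factors). The brain form Eno2 was at 0.594 CPM over all kept cells and did not pass the count minimum.

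Across the Acta1+Myh3 scale the enolase difference was larger. Eno3 read 482, 482, 483 and 479 CPM in the lowest bin and 1516, 1526, 1513 and 1513 CPM in the highest, a 3.15-fold difference (log2 ratio 1.65, interval 1.61 to 1.69). Its share of the enolase UMIs was 45.8%, 49.6%, 60.5% and 74.4% over the 4 bins. On the Myog scale the share was 45.0%, 49.0%, 58.0%, 63.9% and 63.3%, and the upper 2 bins did not differ beyond counting error. Most of the better-covered cells held both forms. Among cells with at least 20 UMIs of Eno1 and Eno3, again summed over the 4 files, the median Eno3 share went from 45.0% to 61.0%. In each Myog bin 97.9% to 99.8% of these cells had an Eno3 share between 10% and 90%. The limits given for the mutase shares of single cells hold here too. Eno1 levels include an uncertainty from its near copy Eno1b, a gene row at 6.79 CPM. The Eno3 promoter window (chr11:70656926-70657175, plus strand, CANNTG in capitals) is shown beside the mutases and held 1 match, CACTTG.
Eno3: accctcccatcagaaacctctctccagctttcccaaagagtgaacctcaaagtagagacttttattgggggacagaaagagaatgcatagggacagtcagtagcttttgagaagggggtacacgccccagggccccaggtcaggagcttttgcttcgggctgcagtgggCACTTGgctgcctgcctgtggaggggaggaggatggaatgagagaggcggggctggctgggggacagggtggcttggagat

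**Figure D2:**
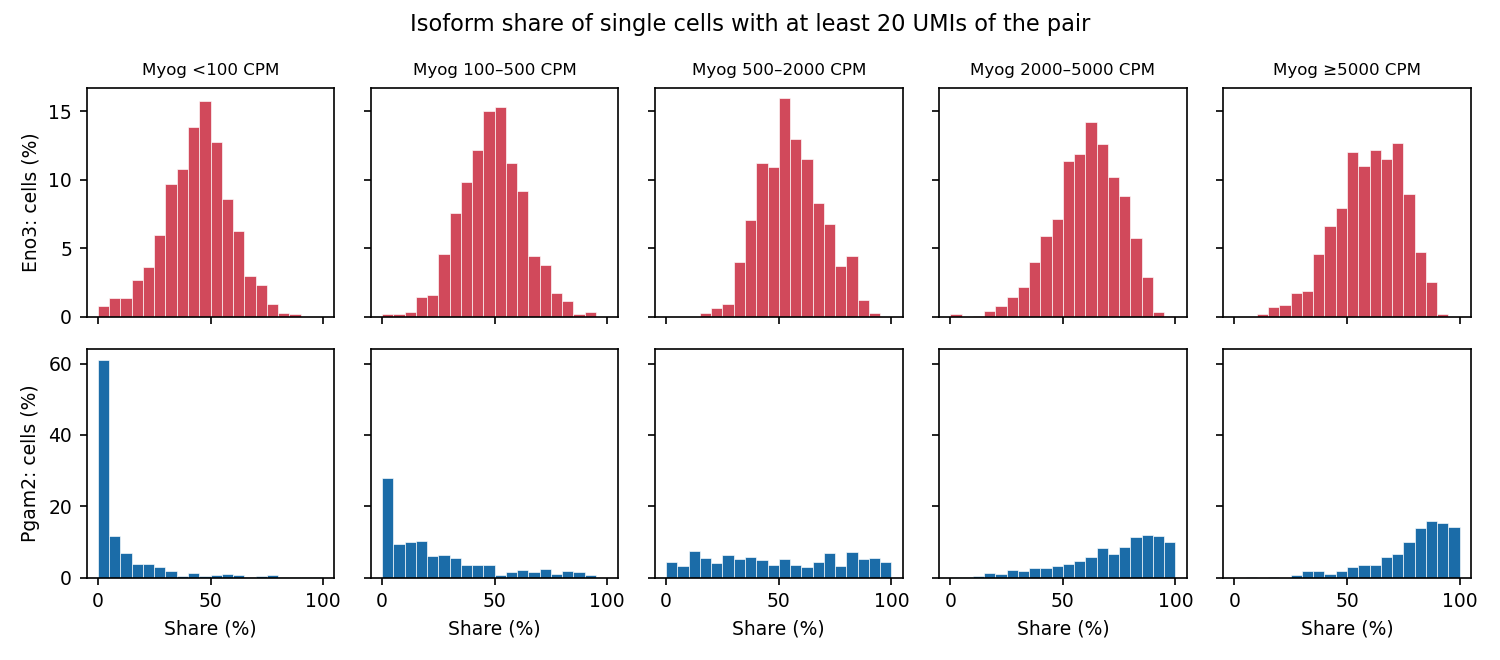
Distribution over single cells of the Pgam2 share of Pgam1 and Pgam2 UMIs and of the Eno3 share of Eno1 and Eno3 UMIs (horizontal axis, percent) against the percentage of cells (vertical axis) in each Myog bin, for cells with at least 20 UMIs of the pair. The mutase shares lie toward opposite ends of the axis in the outer bins (medians 3.23% and 83.3%), with 71.4% of cells between 10% and 90% in the highest bin. The enolase shares form 1 hump that moves from a median of 45.0% to 61.0%.

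Phosphofructokinase commits sugar to glycolysis and has a muscle (Pfkm), a liver (Pfkl) and a platelet (Pfkp) subunit. Pfkm (chr15:98092589-98132451) stood at 9.87, 10.3, 9.79 and 10.0 CPM in the files of Myog-poor cells and at 47.1, 48.2, 45.1 and 49.2 CPM in Myog-rich cells, 4.74-fold apart (log2 ratio 2.14, interval 1.90 to 2.37). Pfkp went the other way, from 31.4, 31.0, 30.3 and 30.2 CPM to 13.6, 14.2, 14.5 and 12.1 CPM (log2 ratio -1.12, interval -1.42 to -0.82). The files of the 2 ends did not overlap for Pfkm or Pfkp, whereas Pfkl lay between 16.0 and 19.3 CPM in all 5 bins. Pfkm took 17.6%, 19.5%, 41.9%, 56.2% and 59.0% of the family's UMIs over the Myog bins, with overlapping intervals in the first 2 bins and in the last 2. Pfkp went from 54.2% to 17.0% between the ends and Pfkl from 28.2% to 24.0%, so over all kept cells the exchange of shares lay between Pfkm and Pfkp. Among cells under 50 CPM of Mki67+Top2a, Pfkp was not called (17.7 and 13.4 CPM, log2 ratio -0.38, interval -0.80 to 0.04). Pfkm was still called higher in those cells (13.1 and 50.3 CPM, log2 ratio 1.87). Single cells held too few phosphofructokinase UMIs for shares per cell.

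On the Acta1+Myh3 scale Pfkm read 9.59, 10.7, 9.81 and 10.4 CPM in the lowest bin and 102, 112, 100.8 and 97.1 CPM in the highest (log2 ratio 3.22, 10.1-fold). Its family share there was 18.1%, 21.8%, 51.6% and 70.4%. Pfkp was lowest in the third bin, at 17.8 CPM, and stood at 26.9 CPM in the highest and 29.4 CPM in the lowest. Its log2 ratio between the ends was -0.13, turned positive under 3 other scalings, and so has no fixed direction. Pfkm overlaps another annotated gene, Gm26513, on the same strand, so reads could be shared between them.

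Glucose enters cells through carriers of the SLC2 family. Of the 3 listed carriers Slc2a1, the broadly expressed one, was the most abundant at 9.26 CPM over all kept cells. Slc2a3 (2.70 CPM) and the insulin-responsive carrier Slc2a4 (2.67 CPM) could not be ordered within counting error. In the lowest Acta1+Myh3 bin Slc2a4 read 1.52, 1.51, 1.72 and 1.57 CPM, and in the highest it read 12.2, 10.9, 10.8 and 9.61 CPM, with no overlap between files (log2 ratio 2.20, interval 1.76 to 2.63). It made up 9.94% of the UMIs of these 3 carriers in the former and 50.9% in the latter. On the Myog scale the same carrier stood at 1.51 and 4.19 CPM, with a log2 ratio of 1.04 that was 0.94 without the fourth file. Slc2a3 was at 4.41 CPM in Myog-poor and 0.333 CPM in Myog-rich cells (log2 ratio -2.02, interval -2.39 to -1.31), the latter from a few UMIs per file. The ratio of Slc2a1 was near 0 in the Myog contrast (-0.12) and changed sign with the scaling.

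Hexokinases trap glucose as glucose 6-phosphate. Hk1 was the main form in every Myog bin, and Hk2, the form linked to insulin response in muscle, took 21.4%, 14.0%, 13.7%, 19.1% and 29.9% of the pair from the lowest bin to the highest. The Hk2 share was thus lowest in the middle of the scale. Over the Acta1+Myh3 bins it was 18.3%, 16.3%, 19.9% and 35.0%. Between the ends of that scale Hk1 was at 75.1 and 37.8 CPM (log2 ratio -0.97), just inside the limit for a call. Hk2 was at 16.8 and 20.4 CPM, with a log2 ratio of 0.27 whose interval (-0.02 to 0.55) includes 0.

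The remaining steps of the chain are served by a single main gene each. Aldoa, the aldolase of muscle, was at 887, 899, 890 and 898 CPM in Myog-poor cells and at 2232, 2239, 2242 and 2243 CPM in Myog-rich cells, without overlap (log2 ratio 1.32, 2.51-fold), and at 2808 against 969 CPM in the Acta1+Myh3 contrast. Aldoc, the brain aldolase, was at 0.0873 CPM and did not pass the minimum. Tpi1 (triose phosphate isomerase) had log2 ratios of 0.70 and 0.96 in the Myog and Acta1+Myh3 contrasts, and Gpi1 (glucose phosphate isomerase) 0.33 and 0.66. Gapdh, the most abundant listed gene at 3272 CPM and often used as a reference gene, had 0.23 and 0.12. Pgk1 (phosphoglycerate kinase) had -0.03 and -0.04, with a sign that depended on the scaling. Pkm, pyruvate kinase, was at 1290 CPM in Myog-poor and 934 CPM in Myog-rich cells (log2 ratio -0.47, the same as the median of all genes). The M1 and M2 splice forms of Pkm were not resolved by these counts.

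The summed level of the 17 genes of the 10 glycolytic steps differed less between the ends of the scales than Pgam2, Pfkm and Pygm did. It was 7831, 8483, 9357, 9684 and 10218 CPM over the Myog bins (log2 ratio between the ends 0.38, interval 0.37 to 0.40) and 8072, 8400, 9470 and 11802 CPM over the Acta1+Myh3 bins (log2 ratio 0.55). Over the Mki67+Top2a bins it was 9446, 9216, 8757 and 7886 CPM (log2 ratio -0.26). On all 3 scales the intervals of neighbouring bins did not overlap. Muscle-structure genes take up part of the total in the same cells (a fixed list of sarcomere genes held 0.349% of UMIs in the lowest Myog bin and 5.24% in the highest), and without them, mitochondrial UMIs and Malat1 in the total the log2 ratios were 0.47, 0.70 and -0.32. They were 0.75, 0.97 and -0.45 with TMM factors and 0.81, 1.06 and -0.44 with median-of-ratios factors. Among cells under 100 CPM of Myog the Mki67+Top2a ratio was -0.011. Single genes within the sum went both ways, so it does not describe each step. From Myog-poor to Myog-rich cells Aldoa was at 894 and 2239 CPM, Pgam2 at 45.4 and 575 CPM, and Eno3 at 472 and 863 CPM. Pkm was at 1290 and 934 CPM, Pgam1 at 385 and 154 CPM, and Eno1 at 576 and 500 CPM.

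**Figure D3:**
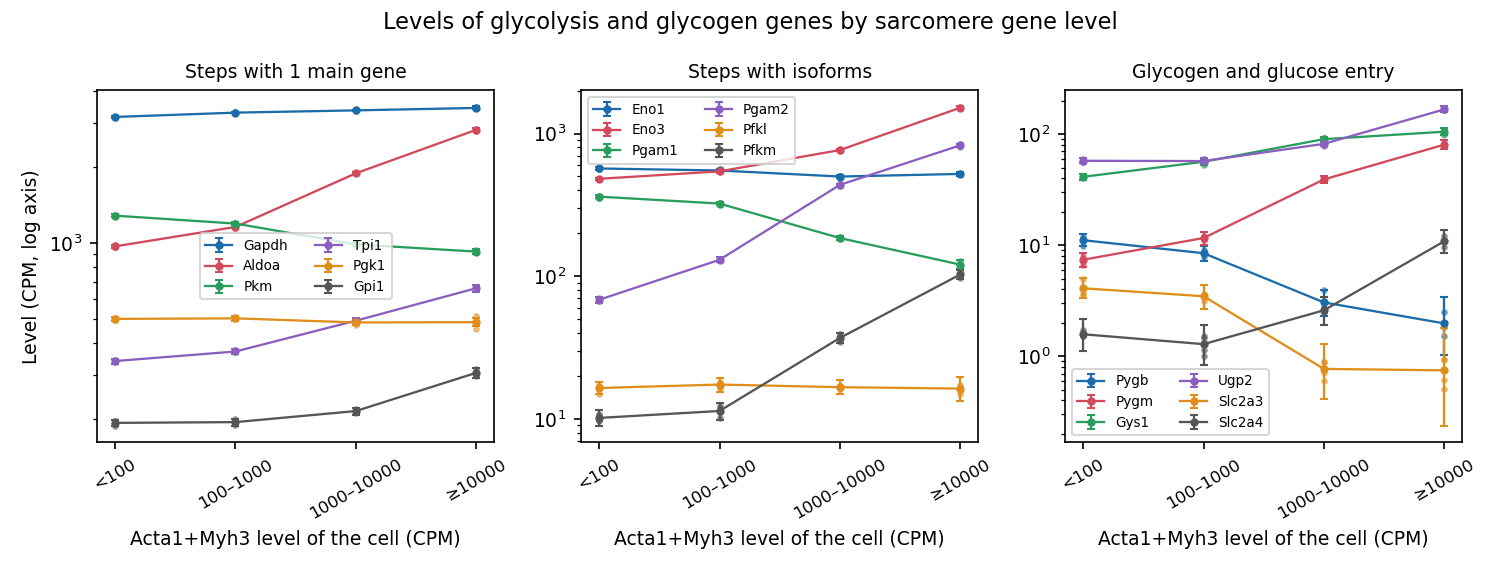
CPM of single glycolysis and glycogen genes (vertical axis, log scale) in the 4 bins of summed Acta1+Myh3 CPM (horizontal axis), with small points for the 4 files, large points for their mean and bars for exact 95% counting intervals. Pgam2 (68.3 to 827 CPM), Pfkm (10.1 to 103 CPM) and Pygm (7.41 to 80.7 CPM) are higher at the right, and Pgam1 (361 to 120 CPM) is lower.

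Lactate dehydrogenase turns pyruvate into lactate and back. Ldha, the form that dominates in glycolytic muscle, stood at 767 and 1031 CPM at the ends of the Myog scale (log2 ratio 0.43). Ldhb, the form of oxidative tissue, stood at 50.02 and 27.1 CPM (log2 ratio -0.86), and its share of the pair went from 6.12% to 2.56%. Neither passed the limit for a call. Lactate leaves through the carriers Slc16a1 (MCT1) and Slc16a3 (MCT4), of which the second is typical of glycolytic fibres. Slc16a1 was at 35.1, 34.4, 37.3 and 34.1 CPM in Myog-poor and 13.1, 12.5, 11.2 and 9.61 CPM in Myog-rich cells, without overlap (log2 ratio -1.53, interval -1.84 to -1.21). In the Acta1+Myh3 contrast it was not called, at 34.6 CPM in the lowest and 24.3 CPM in the highest bin (log2 ratio -0.49). Among cells under 50 CPM of Mki67+Top2a that ratio had the other sign (18.3 and 24.5 CPM, log2 ratio 0.40, interval 0.04 to 0.75). Slc16a3 was called in the Acta1+Myh3 contrast, at 3.85 and 16.8 CPM (log2 ratio 1.87, interval 1.51 to 2.24). Its share of the pair went from 11.3% to 43.2% over the Myog bins. Slc16a1 overlaps Gm43581 and Gm43585 on its strand, which could share its reads.

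Pyruvate dehydrogenase kinases hold back the entry of pyruvate into mitochondria. Pdk4, the kinase that is known to be induced by fasting and fatty acids, read 37.9, 37.4, 37.8 and 37.8 CPM in Myog-poor cells and 4.62, 6.02, 6.46 and 5.36 CPM in Myog-rich cells, without overlap (log2 ratio -2.56, interval -2.97 to -2.14). Its share of the 4 kinases' UMIs went from 47.8% to 14.4%, while Pdk1, a target of hypoxia signalling, went from 4.67% to 17.4%. In level Pdk1 was at 3.68 and 6.79 CPM at these ends (log2 ratio 0.73), inside the limit for a call. The most abundant of the 4 in Myog-rich cells was Pdk3, at 20.5 CPM there and 32.1 CPM in Myog-poor cells (log2 ratio -0.62). In the Acta1+Myh3 contrast Pdk1 was called higher (9.57 against 3.39 CPM, log2 ratio 1.27) and Pdk4 lower (log2 ratio -1.88). Pdk2 and Pdk3 were not called in any of the 3 contrasts. The enzymes of fructose 2,6-bisphosphate, which tune phosphofructokinase, were all below 5 CPM over all kept cells. Pfkfb1 was called lower in Myog-rich cells (0.333 against 2.17 CPM, log2 ratio -1.27, interval -1.63 to -0.51), Pfkfb4 was lower in the Acta1+Myh3 contrast by a small margin (log2 ratio -1.01, and -0.62 in cells thinned to equal depth), and Pfkfb3 was not called.

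Glycogen phosphorylase, which frees glucose units from glycogen, showed the other pronounced isoform exchange. Pygm, the muscle form (chr19:6384399-6398459), was at 5.79, 5.92, 5.27 and 6.32 CPM in Myog-poor and 45.6, 45.4, 46.0 and 44.4 CPM in Myog-rich cells. The brain form Pygb (chr2:150786735-150831758) was at 12.0, 12.0, 12.4 and 11.2 CPM and at 1.59, 1.00, 1.17 and 0.788 CPM. The files did not overlap for either gene, and the log2 ratios were 2.77 (interval 2.50 to 3.04) and -2.60 (interval -3.14 to -1.95). Pygm's share of the pair was 32.9%, 51.6%, 81.1%, 93.0% and 97.6% over the Myog bins and 40.1%, 57.8%, 92.8% and 97.6% over the Acta1+Myh3 bins. The window before the start of Pygm (chr19:6384158-6384407, plus strand, CANNTG in capitals) held 2 matches, both CAGCTG.
Pygm: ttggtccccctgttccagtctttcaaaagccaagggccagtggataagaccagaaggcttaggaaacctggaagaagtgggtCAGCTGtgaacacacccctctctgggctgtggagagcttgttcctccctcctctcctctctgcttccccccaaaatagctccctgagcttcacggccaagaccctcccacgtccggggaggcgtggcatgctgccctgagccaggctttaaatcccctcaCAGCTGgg

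The other listed glycogen genes did not move together. Gys1, muscle glycogen synthase, read 35.4, 35.6, 34.2 and 33.0 CPM in Myog-poor and 78.2, 79.6, 77.4 and 81.8 CPM in Myog-rich cells (log2 ratio 1.18, interval 1.01 to 1.33). Ugp2, which makes the UDP-glucose used by the synthase, was at 57.7 and 168 CPM at the ends of the Acta1+Myh3 scale (log2 ratio 1.52) and at 57.2 and 93.2 CPM at those of Myog (log2 ratio 0.69). Gbe1, the branching enzyme, had log2 ratios of -0.68 and -0.85 in the Myog and Acta1+Myh3 contrasts, and Phka1, a regulatory subunit of phosphorylase kinase, 0.09 and 0.55. Phkg1, its muscle catalytic subunit, was at 1.48 CPM and did not pass the minimum in the Myog contrast. In the Acta1+Myh3 contrast Phkg1 passed and was not called (1.43 and 3.24 CPM, log2 ratio 0.77, interval 0.21 to 1.38). It overlaps Chchd2 on the same strand.

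In the Myog contrast, 35 of the 38 genes passed the count minimum, and Aldoc, Eno2 and Phkg1 did not. Of the 35, 6 were called higher (Pgam2, Pygm, Pfkm, Aldoa, Gys1 and Slc2a4), 7 lower (Pygb, Pdk4, Slc2a3, Slc16a1, Pgam1, Pfkfb1 and Pfkp) and 22 neither. The 35 had a median log2 ratio of 0.09, and 24 lay above the median of all genes. The share of all genes called higher was 7.83%, that called lower 29.7%. TMM and median-of-ratios factors move log2 ratios up by 0.37 and 0.43, and by less for genes at a few CPM. With either, the split is 11 higher and 5 lower (68.8% of those called, against 46.2% by CPM). These factors move the ratios of all genes, so the shares of all genes called change too, and these were not computed. Slc2a1, Pgk1 and Eno1 change sign under both, and Hk1 under the second.

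In the Acta1+Myh3 contrast 35 genes passed, without Aldoc, Eno2 and Pfkfb1. Of these, 10 were called higher, where 8.4% of all genes were, and 5 lower, where 31.1% of all genes were. The 10 were Pgam2, Pygm, Pfkm, Slc2a4, Slc16a3, Eno3, Aldoa, Ugp2, Gys1 and Pdk1, and the 5 were Pygb, Pdk4, Pgam1, Slc2a3 and Pfkfb4. The 35 had a median log2 ratio of 0.12, beside -0.55 over all genes. The 2 factor methods shifted ratios by 0.43 and 0.51, and by less for genes at a few CPM, and gave 14 and 15 higher with 4 lower (77.8% and 78.9% of those called, against 66.7%). Leaving sarcomere, mitochondrial and Malat1 UMIs out of the total shifted them by 0.15 and gave 11 higher and 4 lower. The shares of all genes called were not computed under these 3 scalings. Slc2a1, Pfkl, Pfkp, Pgk1 and Eno1 changed sign under all 3, Pfkfb3 under both factor methods and Pkm under the median-of-ratios factors.

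**Figure D4:**
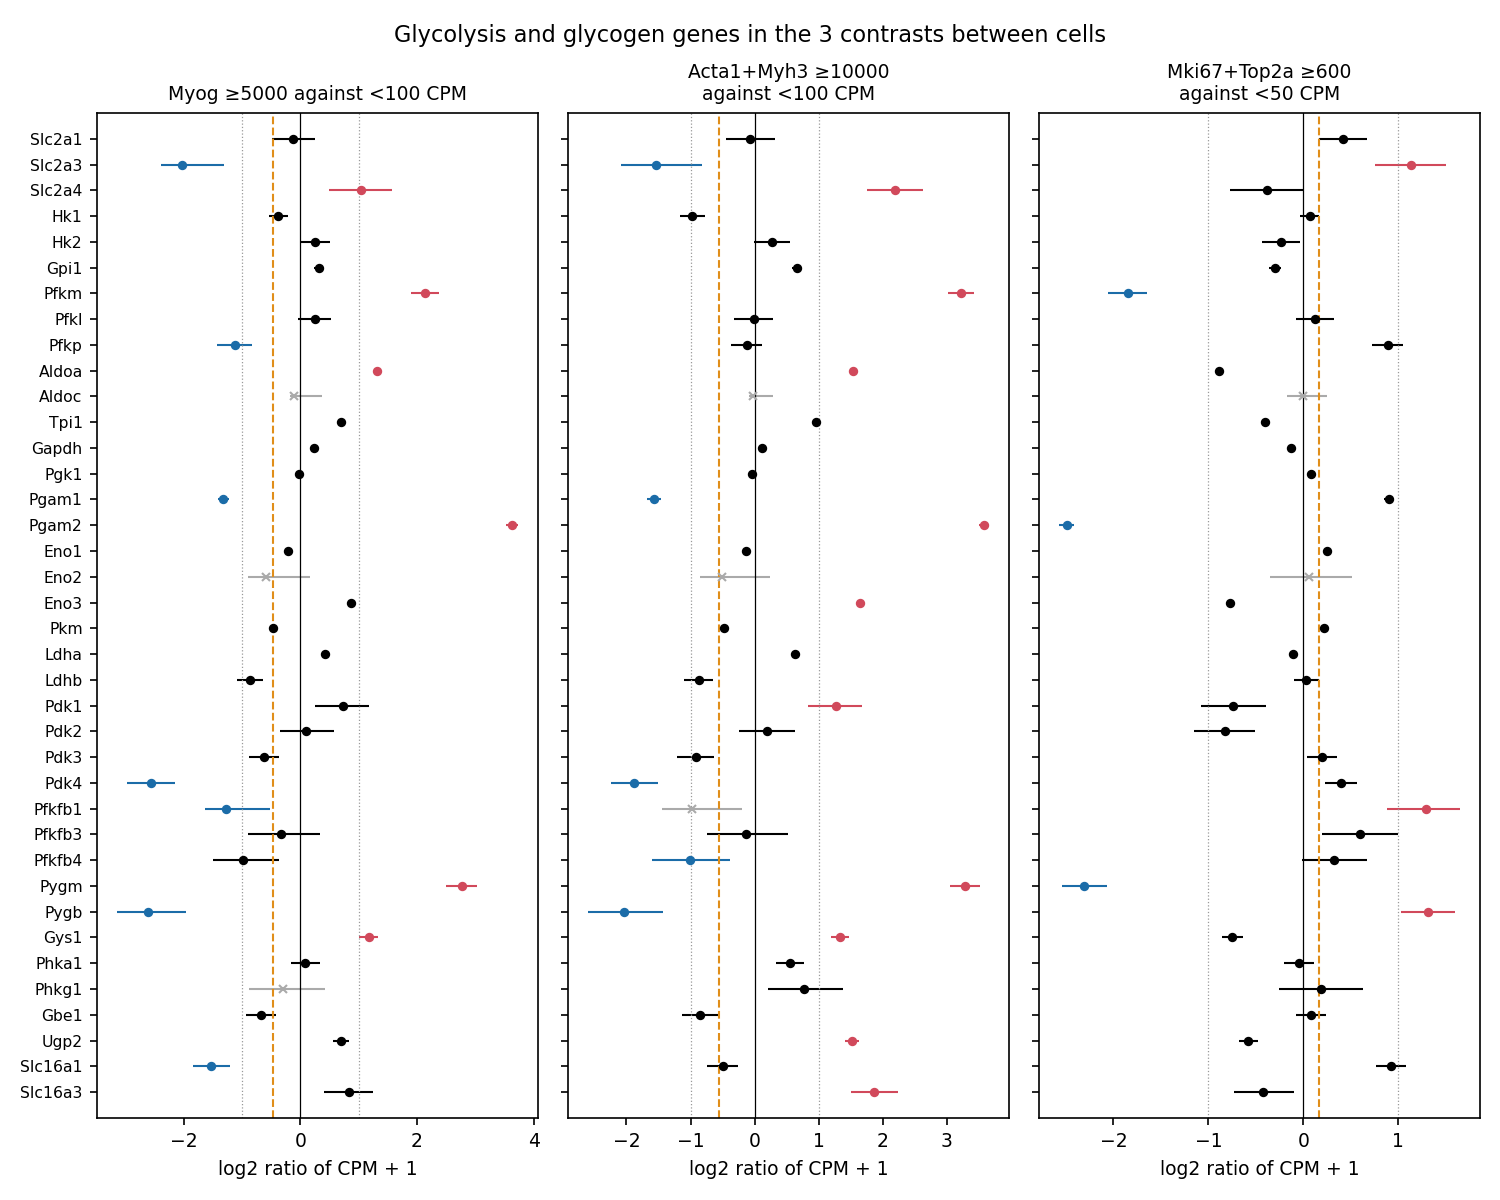
Log2 ratio on CPM plus 1 (horizontal axis) of each glycolysis and glycogen gene in the Myog, Acta1+Myh3 and Mki67+Top2a contrasts, highest bin against lowest; points are means of the 4 files with exact 95% counting intervals, red and blue mark genes called higher and lower, grey crosses genes under the count minimum, dotted lines the limits for a call and dashed lines the median of all genes. Pgam2, Pygm and Pfkm stand at the right in the first 2 contrasts (3.63, 2.77 and 2.14 for Myog) and at the left for Mki67+Top2a (-2.49, -2.31 and -1.85).

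In the Mki67+Top2a contrast 36 genes passed, 3 were called higher (10.6% of all genes were) and 3 lower (5.8% of all genes were). Higher in dividing cells were Pygb (11.5 against 4.05 CPM, log2 ratio 1.31), Pfkfb1 (2.77 against 0.532 CPM, 1.30) and Slc2a3 (4.44 against 1.48 CPM, 1.14). Lower were Pgam2 (77.4 against 440 CPM, -2.49), Pygm (7.55 against 41.3 CPM, -2.31) and Pfkm (11.2 against 42.8 CPM, -1.85). The 36 had a median log2 ratio of 0.05, beside 0.16 over all genes. TMM factors moved ratios by -0.19 and median-of-ratios factors by -0.17, again less at low CPM, and Hk1, Pfkl, Pgk1, Eno2, Ldhb and Gbe1 changed sign under both.

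This scale is tied to the others, since 53.9% of cells in its highest bin but 19.9% in its lowest had under 100 CPM of Myog. Among cells under 100 CPM of Myog alone (621 dividing and 557 not), Pgam2 stayed lower in dividing cells (26.7 against 101.3 CPM, log2 ratio -1.89), as did Pygm (4.35 against 10.9 CPM, -1.15). Pfkm had -0.51, Pygb 0.51 and Slc2a3 0.54 in these cells, inside the limit. Pfkp was past the limit (38.1 against 17.7 CPM, log2 ratio 1.06). These were 1 gene higher and 2 lower of the 32 that passed the minimum, beside 6.61% and 2.8% of all genes. The non-dividing Myog-poor cells had more Malat1 (13061 against 7706 CPM) and fewer UMIs (median 8804 against 13820), and the part of these in the ratios was not tested.

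The same was asked of the other contrasts among cells under 50 CPM of Mki67+Top2a. In the Myog contrast (576 against 557 cells) 30 genes passed, 5 were called higher (8.48% of all genes were) and 4 lower (25.6% of all genes were). Higher were Pgam2 (log2 ratio 2.56), Pygm (2.05), Pfkm (1.87), Aldoa (1.27) and Slc16a3 (1.02), and lower were Pdk4 (-2.85), Pygb (-2.29), Ldhb (-1.31) and Pgam1 (-1.04). Gys1 (0.96) and Slc16a1 (-0.71) lay inside the limit in these cells. In the Acta1+Myh3 contrast (453 against 633 cells) 31 genes passed, 11 were called higher (8.83% of all genes were) and 7 lower (26.9% of all genes were). Pgam2 (2.57), Pygm (2.57), Pfkm (2.96), Slc2a4 (2.95) and Eno3 (1.69) were among the 11, with Tpi1 (1.13) now past the limit. The 7 lower genes were Pdk4 (-2.22), Pygb (-1.93), Ldhb (-1.29), Pgam1 (-1.27), Hk1 (-1.22), Pdk3 (-1.07) and Gbe1 (-1.04), of which Ldhb, Hk1, Pdk3 and Gbe1 were inside the limit over all kept cells.

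Cells were then ordered by Myog and Acta1+Myh3 together, with limits set after the single scales had been seen. The shares of the muscle isoforms were high at different points of this order. Dividing cells under 100 CPM of Myog (621 cells) had a Pgam2 share of 6.39%, an Eno3 share of 42.2%, a Pfkm share of 14.3% and a Pygm share of 23.9%. In Myog-poor cells that were not dividing (557 cells) the same shares were 25.4%, 49.0%, 29.3% and 53.4%. Cells with at least 2000 CPM of Myog but under 100 CPM of Acta1+Myh3 (76 cells) had a Pgam2 share of 48.7% (interval 43.0% to 54.3%) and an Eno3 share of 51.0%. Their Pfkm share was 27.1% (interval 11.6% to 46.9%) and their Pygm share 68.7% (interval 39.4% to 91.1%), both from few UMIs.

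Among cells with at least 2000 CPM of Myog, Pgam2 then went from 221 to 260, 452 and 810 CPM over the 4 Acta1+Myh3 bins. Pfkm stood at 10.4, 15.0, 37.8 and 95.8 CPM in the same cells. Its share was 32.0%, 52.4% and 71.2% in the upper 3 bins, so that most of its difference lay within Myog-rich cells. Slc2a4 read 0.360, 0.597, 2.79 and 9.39 CPM there, and Ugp2 60.9, 52.3, 82.6 and 160 CPM. In 63 cells with high Acta1+Myh3 but under 2000 CPM of Myog, the shares of Pgam2 (86.8%), Eno3 (77.1%), Pfkm (67.6%) and Pygm (96.2%) were close to those of cells high in both.

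**Figure D5:**
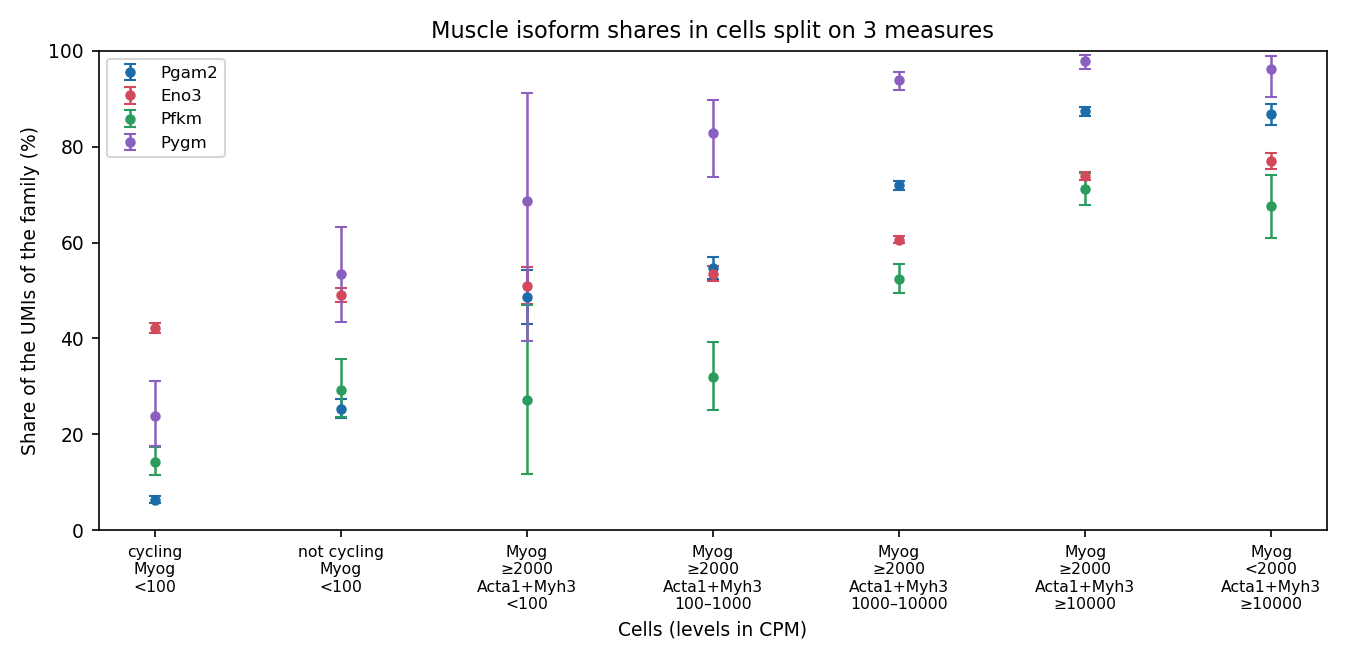
Share of the isoform family's UMIs (vertical axis, percent) held by Pgam2, Eno3, Pfkm and Pygm in groups of cells ordered by Mki67+Top2a, Myog and Acta1+Myh3 CPM (horizontal axis), with exact 95% intervals for counting error. Pgam2 goes from 6.39% to 87.4% and Pygm from 23.9% to 98.0%, and in Myog-rich cells under 100 CPM of Acta1+Myh3 Pgam2 is at 48.7% and Pfkm at 27.1%.

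Other genes of sugar metabolism were read from fixed lists. Of 39 further glycolysis and glycogen genes, 22 passed the minimum in the Myog contrast, 5 were called higher (7.83% of all genes were) and 4 lower (29.7% of all genes were). Among the higher genes were Stbd1 (log2 ratio 1.98), which anchors glycogen to membranes, the phosphorylase kinase subunits Phka2 (1.63) and Phkb (1.27), and glycogenin Gyg (1.17). The 4 lower genes were Slc2a12 (-2.42), Pgm2l1 (-1.52), Slc2a8 (-1.24) and Bpgm (-1.15). Of the 7 pentose phosphate genes, which branch off glucose 6-phosphate, 0 were called higher (7.83% of all genes were) and 3 lower (29.7% of all genes were). These were G6pdx (3.55 against 51.7 CPM, log2 ratio -3.54), Tkt (-2.38) and Pgd (-1.63). None of the 10 genes of pyruvate entry into mitochondria was called in the Myog contrast, and their median was 0.28. Of 12 hypoxia target genes, 10 passed, 1 was higher (Bnip3, 1.92) and 4 lower (Ddit4, Ndrg1, Egln3 and Bhlhe40), near the shares of all genes, 7.83% and 29.7%.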

How the data were processed

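Gene by cell UMI counts were deposited for 4 libraries made with 10x Genomics 3' chemistry; per the file headers the authors made them with Cell Ranger 7.1.0, while the submitters' processing notes list Cell Ranger 3.1.0 and the builds mm10 and GRCm39 without a role. The rule for calling cells and the treatment of intronic reads are not given in the sources used here. Kept cells were barcodes in all 4 files with a mean of at least 1000 genes and under 10% mitochondrial UMIs. CPM, the UMIs of a gene per 1000000 UMIs summed over cells, was computed per file from the deposited counts and averaged over the files. The 4 files share cells and count as 1 sample, so the cells gave no test and no p-value. Log2 ratios used CPM plus 1. Intervals are exact Poisson and Clopper-Pearson intervals at the mean count of 1 file, and cover counting error only. No doublet caller was run; leaving out the 5% of cells with the most UMIs was tried instead. A gene's identity and position came from GENCODE M21 on GRCm38, and promoters from RefSeq (GRCm38.p6). All listed genes are accounted for, with full values for isoform families and for genes past the limit; of each other list, up to 5 genes at each end are named, apart from 1 that is not reported here. The genes and lists were chosen with earlier results of these data known. The ratio script was tested on simulated data. Python 3.11.15, numpy 2.4.6, scipy 1.17.1, pandas 2.3.3 and edgeR 4.0.16 (TMM factors only) were used.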

Additional observations from a re-analysis of the deposited data

Results flagged for a closer look

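Single files stood apart from the other 3 in 12 of 159 values examined (7.55%), where chance alone gives about 5%, and all values come from repeat libraries of the same cells. Over all kept cells, Slc2a3 was at 2.97 CPM in file 2 (2.59 to 2.64 in the others), Pgam2 at 263 CPM in file 4 (257 to 258) and Pdk4 at 23.6 CPM in file 4 (24.3 to 24.4). In the Myog contrast, the log2 ratios of Pdk3 (-0.49) and Slc16a3 (0.48) stood apart in file 3. In the Acta1+Myh3 contrast, those of Ldhb (-0.96, file 2) and Slc16a3 (2.03, file 3) did. In the Mki67+Top2a contrast, it was those of Hk2 (-0.27, file 4), Pgk1 (0.11, file 2), Ldhb (0.10, file 1), Pdk3 (0.081, file 3) and Pygb (1.18, file 1).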

How the results depend on the processing

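Of 165 alternatives to the values that answer a comparison, 132 stayed within the spread, 33 moved and 0 changed sign. Of 2894 alternatives to other values, 2373 stayed, 519 moved and 2 that had been called changed sign, namely Ckmt2 (0.35) and Cox6a2 (0.23) in the Mki67+Top2a contrast among cells under 100 CPM of Myog. Of the 80 ratios of glycolysis and glycogen genes that were not called, 34 took the other sign in at least 1 alternative.

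Genes called higher in the Myog contrast numbered 11 with TMM and 11 with median-of-ratios factors. With either kind of factor the share of all genes called was not computed. Those called lower numbered 4 among cells under 50 CPM of Mki67+Top2a (25.6% of all genes). In the Mki67+Top2a contrast 1 was called higher in thinned cells, where the share of all genes called was not computed. Among cells under 100 CPM of Myog 1 was called higher in that contrast (6.61% of all genes). The log2 ratios of the summed glycolytic level for Myog, Acta1+Myh3 and Mki67+Top2a were 0.75, 0.97 and -0.45 with TMM factors, 0.81, 1.06 and -0.44 with median-of-ratios factors, 0.47, 0.70 and -0.32 on the total without sarcomere, mitochondrial and Malat1 UMIs, 0.41, 0.61 and -0.24 without cells under 2000 CPM of Malat1, and 0.36, 0.40 and -0.27 between the lowest and highest 20% of cells. They were 0.41 and 0.58 (Myog, Acta1+Myh3) as the mean of cells and 0.47 and 0.59 in non-dividing cells, and for Mki67+Top2a -0.28 without the 5% of cells with the most UMIs, -0.27 in thinned cells and -0.011 in cells under 100 CPM of Myog.

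The Pgam2 share difference in the Myog contrast was 66.0 as the mean of cells, 66.4 in thinned cells, 67.0 between those 20% groups and 55.2 in non-dividing cells. In non-dividing cells, those of Eno3 and Pfkm were 15.0 and 31.5. Leaving out each file in turn gave 5 to 7 genes higher and 7 to 8 lower (Myog), and 67.7 to 68.7 points for Pgam2. The shares of all genes called with a file left out were not computed. In the Myog contrast the call was lost for Slc2a4 (0.91 as the mean of cells, 0.94 without the fourth file, 0.96 between the 20% groups), for Pfkp (-0.77 and -0.71 with the 2 factor methods, -0.96 between the 20% groups, -0.38 in non-dividing cells), for Pgam1 (-0.95 and -0.89 with the factor methods) and, in non-dividing cells, for Pfkfb1 (-0.45), Gys1 (0.96) and Slc16a1 (-0.71). In the Acta1+Myh3 contrast Pfkfb4 lost it in several alternatives (-0.98 to -0.62). Among genes of the other lists, Bhlhe40 (-0.90), Bpgm (-0.81), Slc2a8 (-0.96) and Sp1 (-0.78) lost it with TMM factors, and Gamt (0.47) and Sp1 (-0.69) in non-dividing cells. No paired analysis was possible because the result comes from no test. Genes at a few UMIs per file, such as Slc2a3 and Pfkfb1 in Myog-rich cells, have wide intervals at this depth.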

Other observations

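Energy genes outside the sugar pathways were read from the same contrasts. Of 6 creatine kinase system genes, which buffer ATP in muscle, 4 passed the minimum in the Myog contrast and 3 were called higher (7.83% of all genes were), with log2 ratios of 5.84 for Ckm, 3.08 for Ckb and 1.14 for Gamt. Of 98 nuclear-encoded genes of the respiratory chain, 95 passed, 4 were called higher (7.83% of all genes were) and 2 lower (29.7% of all genes were). Their median was 0.31, beside -0.47 over all genes. The 4 included the muscle subunits Cox6a2 (5.49) and Cox8b (3.77), and the 2 were Cox6b2 (-2.62) and Cox4i2 (-1.29). Of 14 regulator genes, 12 passed, 2 were called higher (7.83% of all genes were) and 3 lower, near the share of all genes, 29.7%. Ppargc1a (1.99), a coactivator of mitochondrial genes, and Prkaa2 (1.59) were the higher ones. The lower ones were Myc (-2.49), Prkaa1 (-1.46) and Sp1 (-1.12).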
